A study of Mus musculus with 32 samples.

Results

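Sciatic nerves that carried the C3-PMP22 transgene were compared with all nerves that did not, whatever their Sipa1l2 genotype. The comparison took in all 32 libraries of the series, 16 transgenic and 16 non-transgenic, chosen by genotype label, and was fitted with Sipa1l2 genotype and labelled sex as additive terms. The transgenic nerves were 8 from C3-PMP22 mice (4 labelled female and 4 male) and 8 from C3-PMP22 Sipa1l2-/- mice (5 female and 3 male). The non-transgenic nerves were 9 from Sipa1l2-/- mice (4 female and 5 male) and 7 from wild type mice (WT, 4 female and 3 male). All mice were 6 months old, and each library is a separately numbered sample of polyA-selected RNA. The sources used here do not give mouse strain, transgene copy number or whether controls were littermates. The series sets single genotypes against WT, while this comparison asks which transcripts follow the transgene over both Sipa1l2 backgrounds.

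PMP22 is a tetraspan protein of compact peripheral myelin, the membrane spiral that Schwann cells wrap around axons. Duplication of the human gene causes Charcot-Marie-Tooth disease type 1A, a demyelinating neuropathy, and C3-PMP22 mice carry human PMP22 to model it. Myelin is rich in cholesterol, which Schwann cells make themselves through enzymes controlled by the transcription factor SREBP2, and Schwann cells of injured nerves turn on a repair programme of transcription factors and trophic ligands. Sipa1l2 encodes a GTPase-activating protein for Rap GTPases that the series tests as a modifier of the disease.

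Total counts lay between 11030976 and 16990990 per library, with medians of 13346708 in transgenic and 13172440 in non-transgenic nerves. Levels are CPM, each library's counts scaled to a fixed total with TMM, which take no account of gene length, so they are compared between nerves and not between genes. Mouse Pmp22 (ENSMUSG00000018217, chromosome 11, 63128982 to 63159547, GRCm38) lay at 831 to 3932 CPM (median 2944 CPM) in transgenic nerves and at 2055 to 5154 CPM (median 3244 CPM) in non-transgenic nerves. The groups overlapped, with 7 of 16 transgenic nerves below every non-transgenic one, and the log2 fold change of -0.46 ± 0.20 did not pass (edgeR adjusted p = 0.247). The sources used here do not say whether reads of human PMP22 entered these counts, so the gene does not check the transgene. Sipa1l2 averaged 86.0 ± 40.7 CPM in libraries labelled C3-PMP22 Sipa1l2-/- (SD, n = 8) and 88.9 ± 28.6 CPM in those labelled Sipa1l2-/- (n = 9), against 90.1 ± 25.4 CPM in C3-PMP22 (n = 8) and 82.9 ± 20.3 CPM in WT (n = 7). The counts thus do not show the deletion, and Sipa1l2 genotypes here are those of the labels. Sex-linked genes matched the label in 30 of 32 libraries, and C3-PMP22 samples 7 and 8, labelled female, did not match. Scaled to total counts, they had Xist at 0.0759 and 0.261 CPM and summed Y-linked genes at 193.5 and 215.4 CPM, as males do. The sex counts above, the sex term and the fits by labelled sex keep the labels, so both nerves stand there as female. The Schwann cell markers Prx and Sox10 were present in every library, with lowest values of 580.2 and 39.9 CPM.

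In transgenic nerves 507 of 15403 tested genes differed (3.29%), 235 of them higher (1.53%) and the rest lower (1.77%), at an edgeR adjusted p under 0.05, the threshold of every call here. Of these, 117 (0.76%) changed at least 2-fold, 69 higher and 48 lower, and 252 changed by less than 1.5-fold. The median size of a called change was 0.59 on the log2 scale, and the median half-width of the 95% interval over all tested genes was 0.21. DESeq2 called 799 genes (5.19%). For 38 genes called by edgeR the mean was under 1 CPM, and 219 overlap a gene on the other strand. Such genes were not counted over all tested genes, so these counts do not set the called genes apart. P-values measure the spread between these numbered samples.

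Skeletal muscle and fat transcripts varied between nerves. The summed skeletal muscle list was at 57.5 to 145451 CPM (median 42229.9 CPM) in transgenic nerves and at 62.0 to 97938 CPM (median 5029.9 CPM) in non-transgenic nerves, and the summed adipocyte list at 4875 to 24532 CPM (median 10777 CPM) in transgenic and 6568 to 31080.0 CPM (median 14489 CPM) in non-transgenic nerves. None of the 26 muscle or 18 adipocyte genes tested was called by edgeR or DESeq2, with 0 and 1 at an unadjusted p under 0.05, and the muscle markers Acta1, Ckm, Myh4 and Tnnt3 had log2 fold changes of 0.66, 0.70, 0.69 and 0.66. With a muscle score as a term of the transgenic against non-transgenic nerves fit, genes called numbered 416 (229 higher, 187 lower). With an adipocyte score they numbered 991 (306 higher, 685 lower), and with both scores, a setting chosen after seeing the data, 860 (316 higher, 544 lower). Scaled to total counts alone, which moved the median change over all genes to -0.06, against 0.02 with TMM, the fit called 116 genes higher and 281 lower, so 29.2% of calls were higher, against 46.4% with TMM.

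Only 9 genes separated all 16 transgenic from all 16 non-transgenic nerves, 3 higher (0.0195%) and 6 lower (0.039%). Ankrd63 (ENSMUSG00000078137, chromosome 2, 118699103 to 118703963) was at 2.27 to 10.4 CPM (median 7.13 CPM) in transgenic nerves, against 0 to 1.18 CPM (median 0.652 CPM) in non-transgenic nerves. Every transgenic nerve was above every other, and the log2 fold change was 3.41 ± 0.27 (edgeR adjusted p = 1.25e-09). Piwil4 (ENSMUSG00000036912, chromosome 9, 14696230 to 14740733), an Argonaute family protein that binds piRNAs in the mouse male germ line, was at 1.41 to 18.9 CPM (median 5.1 CPM) in transgenic nerves, against 0 to 0.718 CPM (median 0.473 CPM) in non-transgenic nerves. These groups did not overlap either, with a log2 fold change of 3.79 ± 0.33 (edgeR adjusted p = 9.71e-09). Within C3-PMP22 Sipa1l2-/- nerves Piwil4 lay at 8.3 to 18.9 CPM in samples 6 to 8 and at 1.41 to 3.34 CPM in samples 1 to 5. Rab15 (ENSMUSG00000021062, chromosome 12, 76797960 to 76822908), a small GTPase of endosomes, was at 5.09 to 10.9 CPM (median 8.35 CPM) in transgenic nerves, against 1.28 to 4.64 CPM (median 3.02 CPM) in non-transgenic nerves. It too was higher in every transgenic nerve, with a log2 fold change of 1.41 ± 0.14 (edgeR adjusted p = 1.23e-07). Rab15 overlaps Fntb on the other strand, and the sources used here do not say whether counting used strand, so their reads may not be told apart.

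Kcnj10, Emid1 and Epyc were also higher. Kcnj10 (ENSMUSG00000044708, chromosome 1, 172341210 to 172374085), the inwardly rectifying potassium channel Kir4.1 of glia, was at 5.47 to 38.5 CPM (median 16.1 CPM) in transgenic nerves, against 1.31 to 6.54 CPM (median 3.13 CPM) in non-transgenic nerves. Of the transgenic nerves 14 were above all others, and the log2 fold change was 2.21 ± 0.25 (edgeR adjusted p = 5.23e-07). Emid1 (ENSMUSG00000034164, chromosome 11, 5106265 to 5152257), a secreted protein with an EMI domain, was at 10.04 to 84.3 CPM (median 33.4 CPM) in transgenic nerves, against 3.87 to 14.1 CPM (median 6.94 CPM) in non-transgenic nerves. Here too 14 nerves were above all others, with a log2 fold change of 2.26 ± 0.25 (edgeR adjusted p = 4.06e-07). C3-PMP22 Sipa1l2-/- samples 6 to 8 held 44.7 to 80.5 CPM of Emid1 and samples 1 to 5 held 10.04 to 26.2 CPM. Epyc (ENSMUSG00000019936, chromosome 10, 97644068 to 97682454), the small leucine-rich proteoglycan epiphycan, was at 8.03 to 47.3 CPM (median 21.6 CPM) in transgenic nerves, against 2.27 to 10.5 CPM (median 6.34 CPM) in non-transgenic nerves. In 15 transgenic nerves it was above all others, and its log2 fold change was 1.77 ± 0.19 (edgeR adjusted p = 4.12e-07).

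Ppp2r2c, a regulatory subunit of protein phosphatase 2A, was at 4.31 to 37.2 CPM (median 13.6 CPM) in transgenic nerves, against 1.23 to 6.76 CPM (median 3.29 CPM) in non-transgenic nerves. With 13 nerves above all others, its log2 fold change was 2.24 ± 0.26 (edgeR adjusted p = 1.06e-06). Klk8, the secreted serine protease neuropsin, was at 1.83 to 6.4 CPM (median 3.7 CPM) in transgenic nerves, against 0.584 to 1.89 CPM (median 1.36 CPM) in non-transgenic nerves. Its ranges met only at the lowest transgenic nerve, for a log2 fold change of 1.51 ± 0.16 (edgeR adjusted p = 4.06e-07). Chrm1, the muscarinic acetylcholine receptor M1, was at 0.283 to 3.53 CPM (median 1.67 CPM) in transgenic nerves, against 0.12 to 0.849 CPM (median 0.377 CPM) in non-transgenic nerves. All but 2 transgenic nerves were above the others, with a log2 fold change of 2.00 ± 0.26 (edgeR adjusted p = 8.33e-06). Sema4f, a transmembrane semaphorin, was at 2.07 to 7.88 CPM (median 3.85 CPM) in transgenic nerves, against 0.441 to 2.83 CPM (median 0.783 CPM) in non-transgenic nerves, and 12 transgenic nerves were above all others (log2 fold change 1.93 ± 0.23, edgeR adjusted p = 1.05e-06).

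Among other genes with large rises, Clca3a2, of the calcium-activated chloride channel regulator family, had a log2 fold change of 2.46 ± 0.32 (edgeR adjusted p = 6.71e-06). Btbd16 had one of 2.32 ± 0.34 (edgeR adjusted p = 5.31e-05) and overlaps Fgfr2 on the other strand. Col22a1, a collagen of tissue junctions, passed narrowly at 2.40 ± 0.69 (edgeR adjusted p = 0.0477). It lay above all non-transgenic nerves in 6 transgenic nerves only, and its call was lost without any 1 of 22 libraries (edgeR adjusted p up to 0.129).

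**Figure D1:**
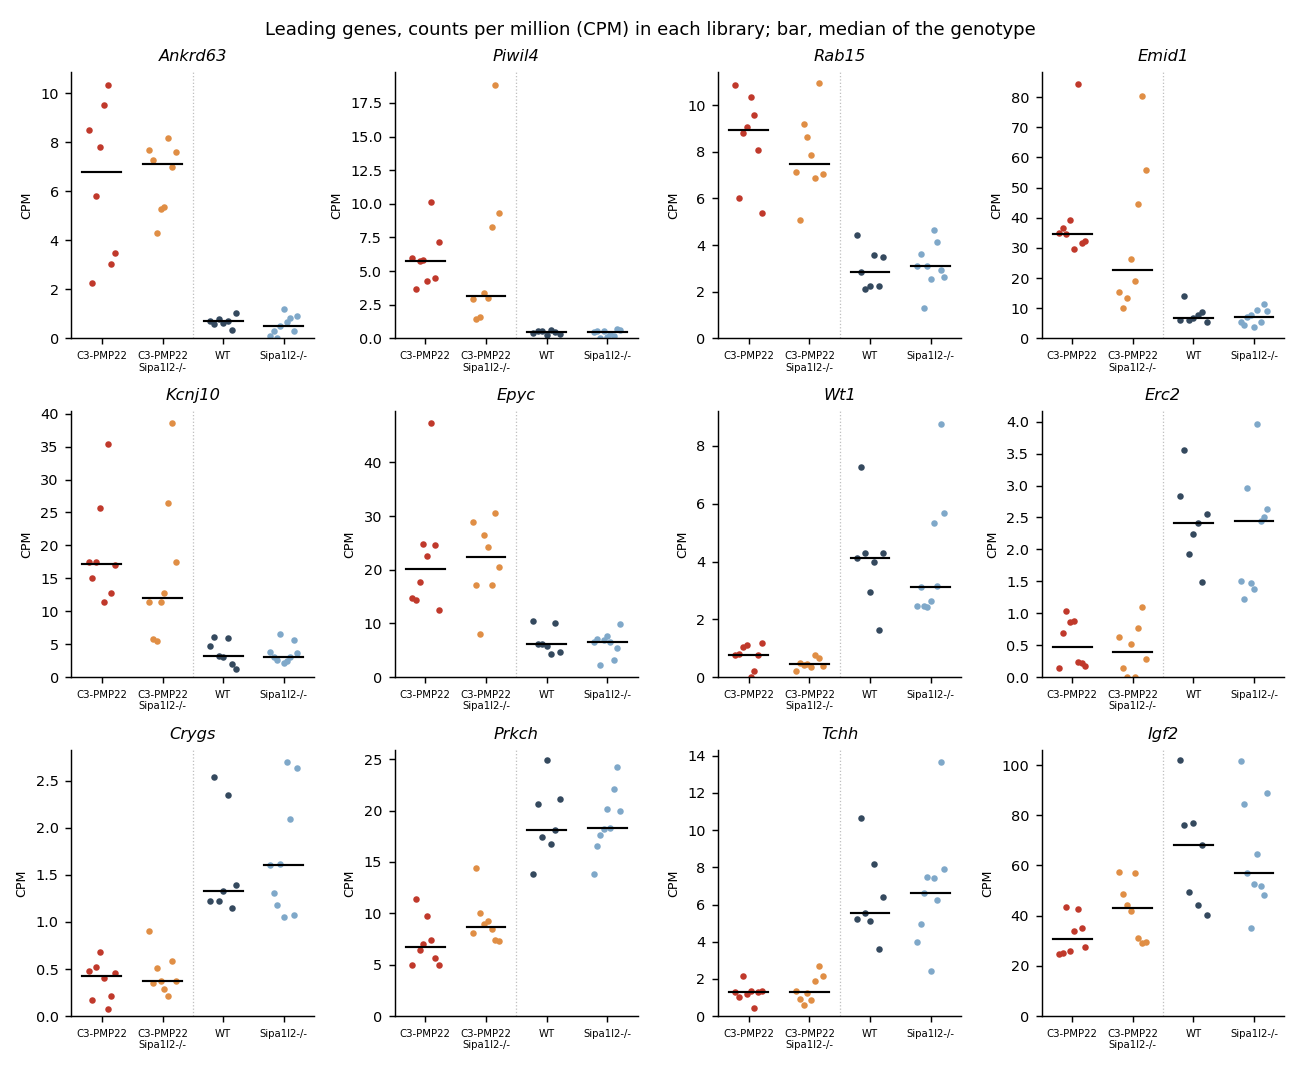
CPM on the vertical axis in each library of the 4 genotypes on the horizontal axis, the transgenic genotypes to the left, for 12 leading genes. Points are libraries and bars are genotype medians. Ankrd63, Piwil4 and Rab15 show every transgenic nerve above every non-transgenic one, and Wt1, Erc2 and Crygs every transgenic nerve below.

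The lower genes that separated the groups were all at low levels. Wt1 (ENSMUSG00000016458, chromosome 2, 105126529 to 105173616), a zinc finger transcription factor of mesothelium and kidney, was at 0 to 1.19 CPM (median 0.584 CPM) in transgenic nerves, against 1.63 to 8.77 CPM (median 3.57 CPM) in non-transgenic nerves. Every transgenic nerve was below every other, and the log2 fold change was -2.76 ± 0.29 (edgeR adjusted p = 1.87e-07). Of 9 mesothelial genes 5 were tested, and mesothelin (Msln), a defining marker, lay at 26.3 to 57.3 CPM (median 45.2 CPM) in transgenic and 31.5 to 83.4 CPM (median 52.9 CPM) in non-transgenic nerves, a log2 fold change of -0.40 ± 0.14 (edgeR adjusted p = 0.114). The marker Upk3b was too low to test, and the keratin gene Krt18 of that list rose, with a log2 fold change of 1.86 ± 0.51 (edgeR adjusted p = 0.0382), a call lost without any 1 of 15 libraries (edgeR adjusted p up to 0.108). The summed mesothelial list was at 40.6 to 135 CPM (median 75.1 CPM) in transgenic and 49.2 to 137 CPM (median 86.5 CPM) in non-transgenic nerves, and its part in the Wt1 result was not tested.

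Erc2, a scaffold of the presynaptic active zone, was at 0 to 1.09 CPM (median 0.401 CPM) in transgenic nerves, against 1.23 to 3.97 CPM (median 2.43 CPM) in non-transgenic nerves. Without overlap, it had a log2 fold change of -2.29 ± 0.33 (edgeR adjusted p = 3.73e-05). Crygs, a crystallin of the lens, was at 0.0773 to 0.909 CPM (median 0.388 CPM) in transgenic nerves, against 1.05 to 2.7 CPM (median 1.36 CPM) in non-transgenic nerves. Its groups were also separate, with a log2 fold change of -1.97 ± 0.22 (edgeR adjusted p = 5.81e-07). Slco1c1, a thyroid hormone transporter, was at 0.561 to 2.07 CPM in transgenic and 2.12 to 5.77 CPM in non-transgenic nerves, Foxi2 at 0 to 0.350 CPM and 0.377 to 2.92 CPM, and Malrd1 at 0 to 0.282 CPM and 0.507 to 1.94 CPM; these 3 genes were named after their values were seen. Tchh, trichohyalin of the hair follicle, was at 0.464 to 2.69 CPM (median 1.31 CPM) in transgenic nerves, against 2.43 to 13.7 CPM (median 6.32 CPM) in non-transgenic nerves. For 15 transgenic nerves that was below all others, at a log2 fold change of -2.25 ± 0.21 (edgeR adjusted p = 5.68e-08). Of 15 keratinocyte and hair follicle genes 4 were tested, and the markers Krt5 and Krt14 were too low to test.

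Prkch, Igf2 and Rspo1 also fell. Prkch (ENSMUSG00000021108, chromosome 12, 73584796 to 73778185), protein kinase C eta, was at 4.94 to 14.4 CPM (median 7.77 CPM) in transgenic nerves, against 13.8 to 24.9 CPM (median 18.3 CPM) in non-transgenic nerves. Except C3-PMP22 Sipa1l2-/- sample 2, every transgenic nerve was below all others, and the log2 fold change was -1.20 ± 0.12 (edgeR adjusted p = 1.00e-07). Of the 12 protein kinase C genes it alone was called, and the list's median was -0.09. Igf2 (ENSMUSG00000048583, chromosome 7, 142650766 to 142666816), insulin-like growth factor 2, was at 24.7 to 57.5 CPM (median 34.6 CPM) in transgenic nerves, against 35.1 to 102 CPM (median 60.9 CPM) in non-transgenic nerves. The ranges overlapped, with 8 transgenic nerves below all others and all 16 below the non-transgenic median, at a log2 fold change of -0.82 ± 0.08 (edgeR adjusted p = 1.47e-07). Rspo1, an R-spondin that enhances Wnt signalling, was at 13.7 to 26.9 CPM (median 19.8 CPM) in transgenic nerves, against 22.8 to 46.7 CPM (median 35.1 CPM) in non-transgenic nerves. With 12 nerves below all others its log2 fold change was -0.78 ± 0.09 (edgeR adjusted p = 1.61e-06).

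Among further genes with large falls, Cyp2j13, a cytochrome P450, had a log2 fold change of -3.17 ± 0.39 (edgeR adjusted p = 1.90e-06), and Dlk1, an imprinted transmembrane protein related to Notch ligands, one of -1.97 ± 0.24 (edgeR adjusted p = 1.42e-06). Etnppl, ethanolamine-phosphate phospho-lyase, was at 1.34 to 40.5 CPM (median 9.82 CPM) in transgenic nerves, against 13.8 to 116 CPM (median 32.3 CPM) in non-transgenic nerves. It ranged widely within both groups, which overlapped, and had a log2 fold change of -1.71 ± 0.40 (edgeR adjusted p = 0.0114). Elovl4, an elongase of very-long-chain fatty acids, and Them5, an acyl-CoA thioesterase, had log2 fold changes of -1.56 ± 0.27 and -1.54 ± 0.32 (edgeR adjusted p = 5.93e-04 and 0.00425). Tmem28 had one of -1.71 ± 0.20 (edgeR adjusted p = 7.76e-07).

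With Sipa1l2 intact and with the Sipa1l2-/- genotype the transgene was set against controls of its own background. C3-PMP22 against WT gave 106 calls (0.688%), 58 higher (0.377%) and 48 lower (0.312%), and C3-PMP22 Sipa1l2-/- against Sipa1l2-/- gave 111 (0.721%), 57 higher (0.37%) and 54 lower (0.351%). The C3-PMP22 against WT count, genes called, rested on single libraries, in both directions. It was 183 without C3-PMP22 sample 2, 231 without C3-PMP22 sample 5 and 409 without WT sample 3. It was 71 without WT sample 5, 71 without WT sample 6, and 59 without C3-PMP22 samples 7 and 8 together. Fitted apart, with no library in common, the backgrounds gave 83 calls (0.565%) with Sipa1l2 intact and 68 (0.461%) with Sipa1l2-/-, and 32 genes were called in both, all with the same sign. Those 32 were 39.5% of the 81 calls of C3-PMP22 against WT and 47.8% of the 67 calls of the other background that were tested in both. Of the 81, 79 kept their sign in the other background and 66 did so at an unadjusted p under 0.05, while 59.1% of all genes had the same sign. Their median change was 1.10 on the log2 scale where called and 0.85 in the other background.

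In those separate fits Piwil4 had log2 fold changes of 3.67 ± 0.26 in C3-PMP22 against WT and 3.81 ± 0.52 in C3-PMP22 Sipa1l2-/- against Sipa1l2-/-. Igf2 had -0.96 and -0.74, Prkch -1.46 and -1.05, Kcnj10 2.32 and 2.12, and Gfap 1.47 and 1.6 in the same order of backgrounds. Called in both but outside the naming rule were Galnt6, a glycosyltransferase, at 1.66 and 1.09, Otop1, a proton channel, at 1.61 and 2.04, and Bhlhe22, a basic helix-loop-helix transcription factor, at 1.32 and 1.5, named after their values were seen. No gene was called for an interaction of transgene and Sipa1l2 genotype by edgeR (smallest adjusted p = 0.70), with 987 at an unadjusted p under 0.05, and DESeq2 called 3. Among the 3 genes with the smallest p-values there were Fam110c and Kif7.

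**Figure D2:**
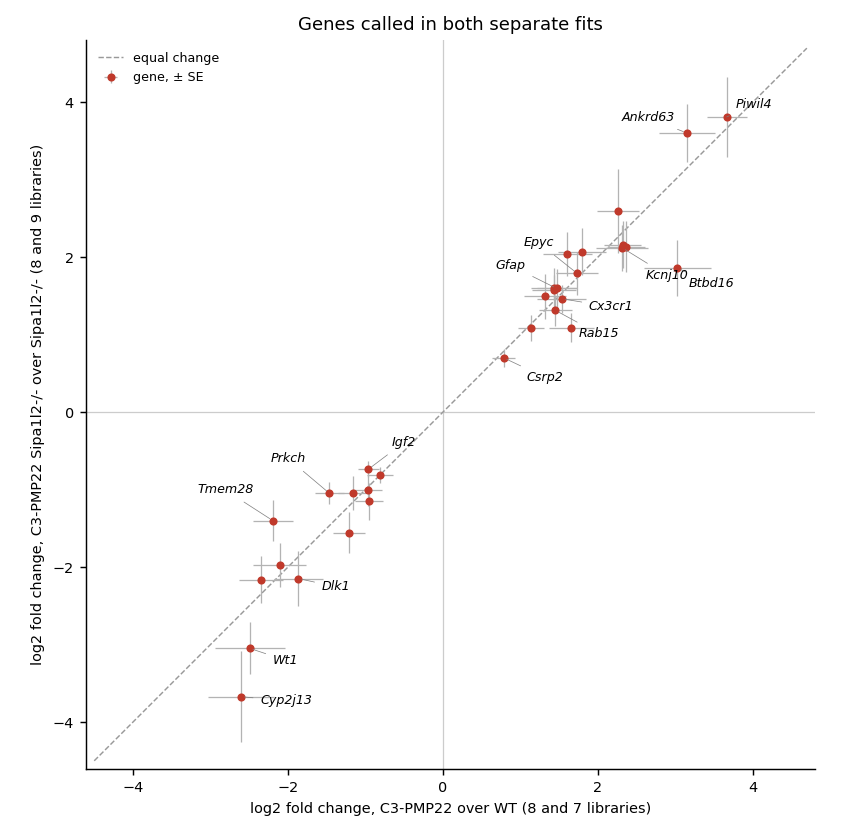
Log2 fold change of C3-PMP22 Sipa1l2-/- against Sipa1l2-/- nerves on the vertical axis and of C3-PMP22 against WT nerves on the horizontal axis, fitted apart with no shared library, for the 32 genes called in both. Points are genes, bars are SE and the dashed line marks equal change. All 32 genes have the same sign in both backgrounds, from Cyp2j13 at the lower left to Piwil4 at the upper right.

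Labelled sex and the 2 series of sample identifiers, plain numbers and numbers with the letter G, are linked among C3-PMP22 Sipa1l2-/- nerves, where samples 1 to 5 are female and plain and samples 6 to 8 are male and G, so sex and series cannot be told apart there. In the transgenic against non-transgenic nerves fit on labelled females only, genes called numbered 127 (41 higher, 86 lower), and on males only 101 (82 higher, 19 lower). The fit on labelled females holds C3-PMP22 samples 7 and 8, which are male by their sex-linked genes. On the plain series only there were 377 (95 higher, 282 lower) and on the G series only 182 (91 higher, 91 lower). No gene was called for an interaction of transgene and labelled sex by edgeR (smallest adjusted p = 0.680), with 984 at an unadjusted p under 0.05, and DESeq2 called 4. Ndst3, Gpr173 and Rnf152 had the smallest p-values there. The skeletal muscle genes had a median log2 fold change of 5.32 in the G series and -0.07 in the plain series, and the adipocyte genes -0.88 and 0.24, and their part in these counts was not tested. Of the 25 leading genes 18 were called in each of the 6 fits on part of the libraries, by sex, series and background, and none changed sign. These genes were chosen by the fit on all 32 libraries, which holds these parts, so their kept sign is no separate support.

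The 59 gene lists were read against the 1.53% of all tested genes called higher, the 1.77% called lower and the median log2 fold change of 0.02 over all tested genes. In bulk nerve, fewer cells of a type and less RNA per cell cannot be told apart. Among lists with at least 10 genes tested, the shares called were highest for axonal and neuronal genes (66.7%) and cholesterol synthesis (60%), whose calls were lower but for 1 axonal gene, and for repair and immature Schwann cell genes (35.7%), whose calls were higher but for 1.

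**Figure D3:**
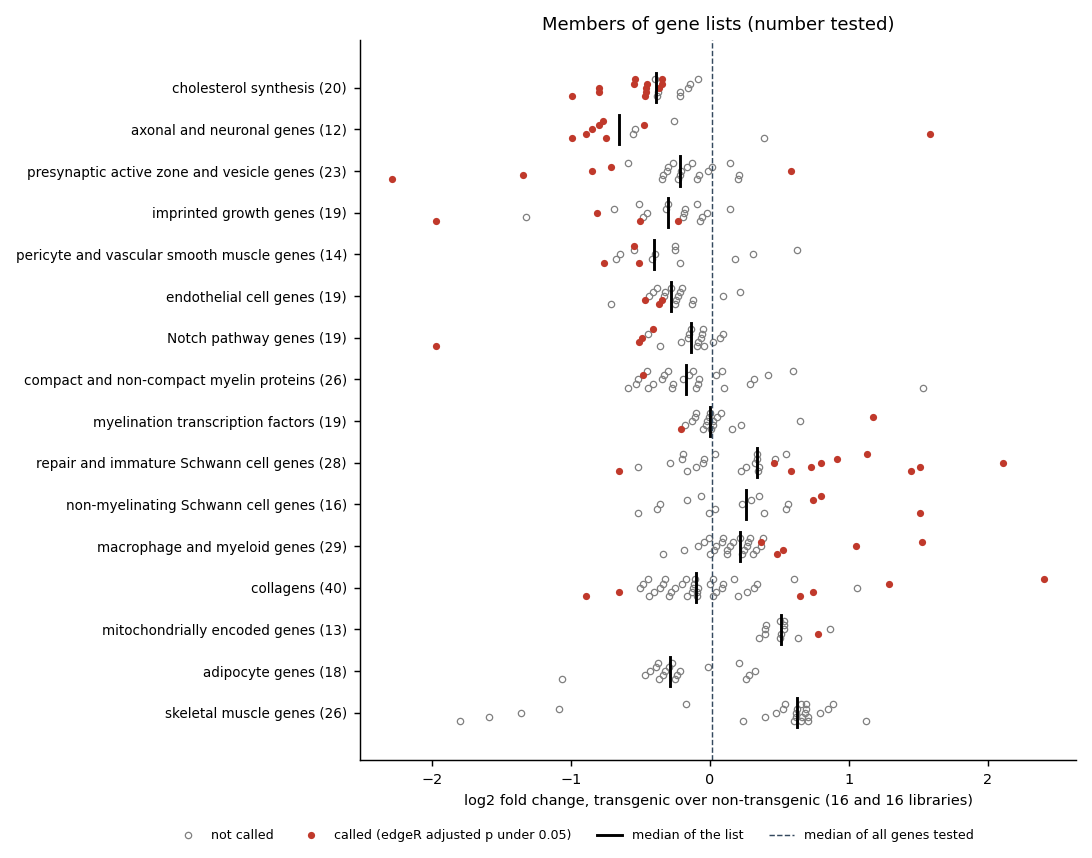
Log2 fold change of transgenic against non-transgenic nerves on the horizontal axis for the tested members of selected gene lists, one row a list; points are genes, filled where called, black marks are list medians and the dashed line is the median of all genes tested. Cholesterol synthesis has a median of -0.39 with all 20 genes below 0, and the repair Schwann cell list a median of 0.34.

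Most genes of cholesterol synthesis fell in transgenic nerves. Of 20 enzymes tested 12 were called lower (60%), none higher, and all 20 had a negative log2 fold change, with a median of -0.39. Leaving out 1 library at a time gave 9 to 13 called lower. The median was -0.60 in C3-PMP22 against WT and -0.22 in C3-PMP22 Sipa1l2-/- against Sipa1l2-/-. In the same order the adipocyte list had medians of -0.59 and 0.03 and the skeletal muscle list 1.53 and -0.0047, and their part in this difference was not tested. Summed over the list, transcripts were at 616 to 1581 CPM (median 1088 CPM) in transgenic nerves and at 1079 to 2035 CPM (median 1474 CPM) in non-transgenic nerves, so that the ranges overlapped with the transgenic nerves at the low end. The summed adipocyte list given above also had a lower median in transgenic nerves. With the adipocyte score as a term, a fit that called 991 genes in all, 12 cholesterol synthesis genes were called lower and the list's median was -0.38. That fit holds no term for skeletal muscle. With the muscle score as a term, 416 genes were called in all, 229 higher and 187 lower. The values of the cholesterol synthesis list in the muscle fit are not given here.

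Sqle (ENSMUSG00000022351, chromosome 15, 59315077 to 59331192), squalene epoxidase, was at 15.7 to 49.3 CPM (median 31.0 CPM) in transgenic nerves, against 38.8 to 78.6 CPM (median 52.7 CPM) in non-transgenic nerves, a log2 fold change of -0.80 ± 0.13 (edgeR adjusted p = 2.46e-04). Hsd17b7, which also acts as a sterol ketoreductase, was at 13.8 to 35.8 CPM (median 26.9 CPM) in transgenic nerves, against 29.3 to 62.1 CPM (median 39.9 CPM) in non-transgenic nerves, a log2 fold change of -0.80 ± 0.13 (edgeR adjusted p = 3.20e-04). For both genes the groups overlapped, with transgenic nerves at the low end. Fdft1, squalene synthase, had -0.37 ± 0.08 (edgeR adjusted p = 0.00718) and overlaps Ctsb on the other strand. Hmgcs1, HMG-CoA synthase, had -0.54 ± 0.13 (edgeR adjusted p = 0.0149) and Fdps, farnesyl diphosphate synthase, -0.47 ± 0.10 (edgeR adjusted p = 0.00842). Cyp51, Idi1, Msmo1, Mvk and Dhcr7, also called, had log2 fold changes of -0.46 to -0.35.

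**Figure D4:**
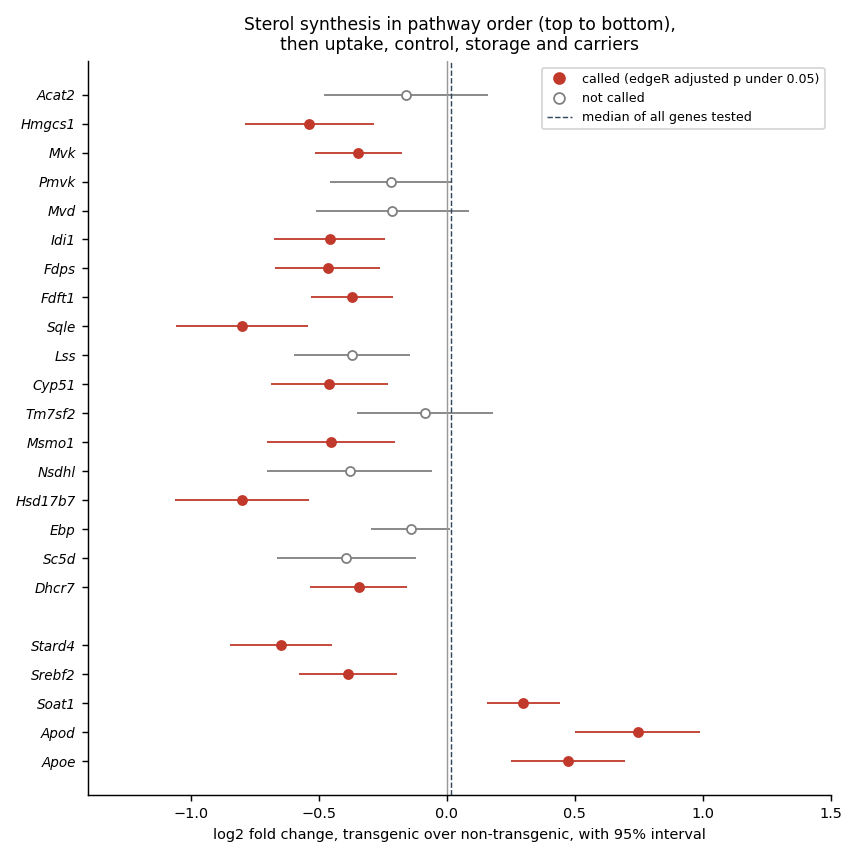
Log2 fold change of transgenic against non-transgenic nerves, with 95% intervals, for 18 of the 20 genes of cholesterol synthesis in pathway order and, under them, for 5 called genes of uptake, control, storage and carriers; filled points are called and the dashed line is the median of all genes tested. All 18 synthesis genes drawn have their point below 0, and Sqle and Hsd17b7 lie lowest at -0.80.

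Genes that SREBP2 controls or that control it moved less evenly. Of 12 genes of uptake and SREBP2 control 3 were lower and 1 higher, with a median of -0.12. Among the lower ones Stard4, a sterol carrier, had a log2 fold change of -0.65 ± 0.10 and Srebf2, the gene of SREBP2, -0.38 ± 0.10 (edgeR adjusted p = 1.28e-04 and 0.0225). Soat1, which esterifies cholesterol, was higher at 0.30 ± 0.07 (edgeR adjusted p = 0.0167), a call lost under total counts. Of 15 efflux and lipid carrier genes 2 were higher, with a median of -0.05: Apod, a lipocalin of Schwann cells, at 0.75 ± 0.13 and Apoe, the apolipoprotein of lipid transport, at 0.47 ± 0.11 (edgeR adjusted p = 3.20e-04 and 0.0148). The Apoe call was also lost under total counts. Fatty acid synthesis and elongation had 2 of 20 lower, Elovl4 above and Fads1, a desaturase, at -0.38 ± 0.11 (edgeR adjusted p = 0.0464), and the Fads1 call was lost without any 1 of 21 libraries. By edgeR none of 19 enzymes of myelin sphingolipids and galactolipids was called, nor by DESeq2, with 1 higher and 5 lower at an unadjusted p under 0.05 and a median of -0.12.

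Promoters of the pathway were searched for TCACNCCAC, letters of a sterol regulatory element, and CCAAT, the letters bound by the factor NF-Y, on both strands of RefSeq windows (GRCm38.p6) of 250 bases before to 50 bases after each gene's start. TCACNCCAC stands in 408 of 32851 windows (1.24%) and CCAAT in 12289 (37.4%). Of the 20 synthesis genes 15 had a window, of which 1 held TCACNCCAC and 14 held CCAAT, and the matches did not overlap each other. Sqle, Fdft1 and Fdps, all called lower, were among the genes without a window and were not searched. Of 10 uptake and control genes with a window 0 held TCACNCCAC and 7 held CCAAT. Some genes have several windows, so the shares over all windows compare with counts of windows. Of 18 synthesis windows 1 held TCACNCCAC and 14 held CCAAT, and of 13 uptake and control windows 0 and 7. The 250 bases before the start are shown for Hmgcs1, the gene with the regulatory element letters (137 bases before its start), and for Hsd17b7, which has CCAAT 3 times and no TCACNCCAC. Capitals mark TCACNCCAC and CCAAT on either strand, where CCAAT on the other strand reads ATTGG. The windows are chr13:119690101-119690350 on the + strand and chr1:169969206-169969455 on the - strand.
Hmgcs1: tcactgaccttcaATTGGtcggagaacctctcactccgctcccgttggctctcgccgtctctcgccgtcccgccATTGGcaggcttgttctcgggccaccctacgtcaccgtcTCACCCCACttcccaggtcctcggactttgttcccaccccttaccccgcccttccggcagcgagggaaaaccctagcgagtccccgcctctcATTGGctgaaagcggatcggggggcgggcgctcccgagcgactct
Hsd17b7: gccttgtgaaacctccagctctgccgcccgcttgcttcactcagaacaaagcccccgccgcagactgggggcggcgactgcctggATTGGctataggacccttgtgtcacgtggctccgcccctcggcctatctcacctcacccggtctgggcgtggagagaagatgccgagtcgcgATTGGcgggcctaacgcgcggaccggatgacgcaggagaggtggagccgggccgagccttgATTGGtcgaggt
Matches of letters are a description and do not show binding.

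Genes of myelin itself held few calls, though most were below 0. Of 26 compact and non-compact myelin proteins 1 was called, Tppp3, a tubulin polymerization promoting protein, at -0.48 ± 0.08 (edgeR adjusted p = 2.66e-04). Of the 26, 18 had a negative log2 fold change, and the list's median was -0.17. By background the median was -0.11 in C3-PMP22 against WT and -0.30 in C3-PMP22 Sipa1l2-/- against Sipa1l2-/-. The summed list was at 7047 to 32888 CPM (median 16733 CPM) in transgenic nerves. In non-transgenic nerves it was at 14487.5 to 40597.9 CPM (median 22189 CPM), so the ranges overlapped. With the adipocyte score as a term, 9 of the compact and non-compact myelin proteins were called lower. Mbp, which encodes myelin basic protein, was at 1887 to 8969.5 CPM (median 5168 CPM) in transgenic nerves, against 3848 to 9864 CPM (median 5708 CPM) in non-transgenic nerves. The groups overlapped, and the log2 fold change of -0.30 ± 0.20 did not pass (edgeR adjusted p = 0.465). Within C3-PMP22 Sipa1l2-/- nerves Mbp was at 6779 to 8969.5 CPM in samples 6 to 8 and at 1887 to 4459.7 CPM in samples 1 to 5, and Pmp22 at 3683 to 3932 CPM and 831 to 1798 CPM.

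Of 19 transcription factors of myelination 1 was higher and 1 lower, at a median of 0.00. Pou3f1 (Oct6), which marks promyelinating Schwann cells, was at 5.44 to 41.7 CPM (median 18.7 CPM) in transgenic nerves, against 4.43 to 18.1 CPM (median 6.87 CPM) in non-transgenic nerves. It rose with a log2 fold change of 1.17 ± 0.25 (edgeR adjusted p = 0.00504). Nab1, an EGR cofactor, had -0.21 ± 0.06 (edgeR adjusted p = 0.0433), a call lost without any 1 of 22 libraries. Egr2, the main factor of myelination, had -0.03 ± 0.24 and Sox10, the Schwann cell lineage factor, -0.11 ± 0.22 (edgeR adjusted p = 0.965 and 0.838).

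**Figure D5:**
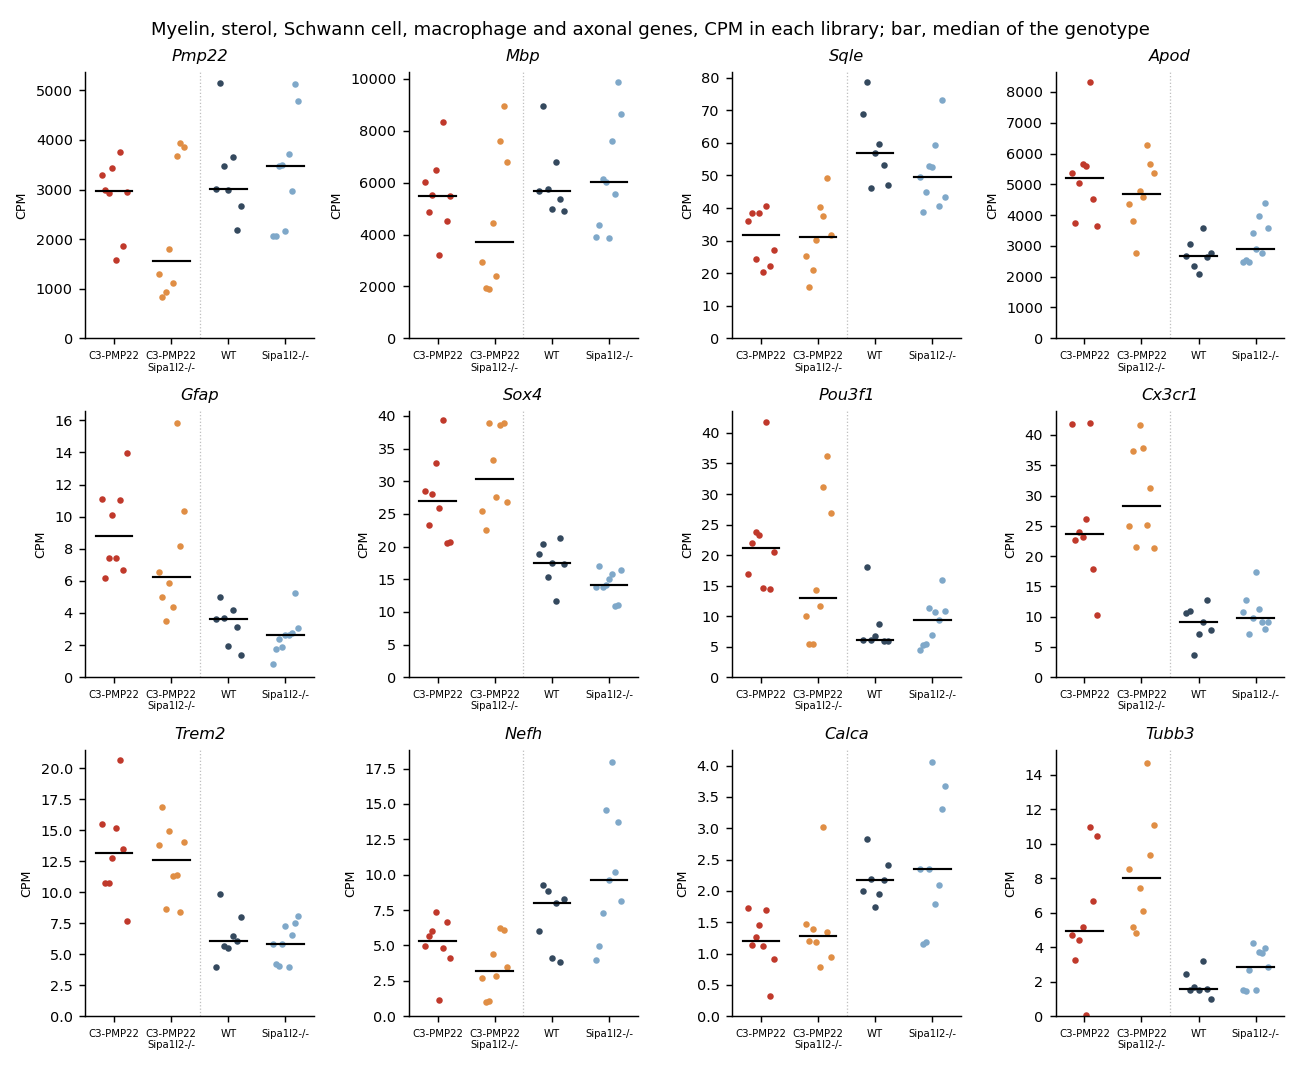
CPM on the vertical axis in each library of the 4 genotypes on the horizontal axis, the transgenic genotypes to the left, for genes of myelin, Schwann cell state, macrophages, lipids and axons. Points are libraries and bars are genotype medians. Pmp22 and Mbp overlap between all genotypes, Sqle lies lower in both transgenic genotypes, and Gfap, Sox4 and Trem2 lie higher.

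Of 28 genes of repair and immature Schwann cells tested 9 were higher and 1 lower, with a median of 0.34, and leaving out 1 library at a time gave 8 to 10 higher. The list holds 34 genes, of which Sox11, Olig1, Pax3, Artn, Cxcl5 and Fgf5 were too low to test. Gfap, a glial intermediate filament, was at 3.5 to 15.8 CPM (median 7.45 CPM) in transgenic nerves, against 0.849 to 5.24 CPM (median 2.69 CPM) in non-transgenic nerves, a log2 fold change of 1.51 ± 0.20 (edgeR adjusted p = 1.08e-05). Sox4, a transcription factor of immature Schwann cells, was at 20.5 to 39.3 CPM (median 27.8 CPM) in transgenic nerves, against 10.9 to 21.3 CPM (median 15.6 CPM) in non-transgenic nerves, a log2 fold change of 0.92 ± 0.11 (edgeR adjusted p = 1.08e-06). Gdnf, glial cell line-derived neurotrophic factor, had 1.45 ± 0.29, Btc, the EGF family ligand betacellulin, 1.13 ± 0.20, and Ucn2, urocortin 2, 2.11 ± 0.42 (edgeR adjusted p = 0.0031, 6.82e-04 and 0.00285). Lif, a cytokine of injured nerve, was lower at -0.65 ± 0.15 (edgeR adjusted p = 0.0113). Jun, the factor that drives the repair state, and Ngfr, the p75 neurotrophin receptor, had 0.26 ± 0.09 and 0.55 ± 0.17 and did not pass (edgeR adjusted p = 0.139 and 0.0653).

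Of 16 genes of non-myelinating Schwann cells 3 were higher, Gfap, Apod and Sox2, with a median of 0.26. Sox2, a transcription factor that holds Schwann cells immature, had 0.80 ± 0.21 (edgeR adjusted p = 0.031), a call lost without any 1 of 5 libraries. Of 24 neurotrophic ligands and receptors 2 were higher and 2 lower, at a median of -0.05. Gdnf was among the higher ones, and the lower ones were Lif, and Ret, the signalling receptor of Gdnf, at -0.71 ± 0.20 (edgeR adjusted p = 0.0445). The Ret call was lost without any 1 of 21 libraries. Of 12 neuregulins and ErbB receptors and their processing genes, Btc and Adam17, a sheddase, at 0.27 ± 0.05, were higher, and Tgfa, an EGF receptor ligand, at -0.69 ± 0.19, lower (edgeR adjusted p = 0.00211 and 0.0422), the Tgfa call lost without any 1 of 18 libraries.

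Axonal and neuronal transcripts were mostly lower. Of 12 tested 7 were lower and 1 higher, with a median of -0.65, and the summed list was at 178 to 406 CPM (median 273.3 CPM) in transgenic nerves, against 241 to 656 CPM (median 477 CPM) in non-transgenic nerves. Leaving out 1 library at a time gave 3 to 8 lower, with under 5 without any 1 of C3-PMP22 Sipa1l2-/- samples 1, 2 and 5, Sipa1l2-/- samples 6, 8 and 9 and WT sample 2. Nefh, the heavy neurofilament subunit, was at 0.99 to 7.37 CPM (median 4.59 CPM) in transgenic nerves, against 3.86 to 18.0 CPM (median 8.18 CPM) in non-transgenic nerves. It overlapped between groups and had a log2 fold change of -1.0 ± 0.26 (edgeR adjusted p = 0.0277), a call lost without WT sample 2 or C3-PMP22 Sipa1l2-/- sample 8. Snap25, a SNARE of synaptic vesicle release, had -0.85 ± 0.22, Calca, the gene of the neuropeptide CGRP, -0.80 ± 0.19, and Sncg, gamma-synuclein, -0.75 ± 0.14 (edgeR adjusted p = 0.0237, 0.0139 and 0.00162). Nefl, the light neurofilament subunit, had -0.77 ± 0.21 (edgeR adjusted p = 0.0405), lost without any 1 of 13 libraries. Nefl also was the only call among 43 inherited neuropathy genes, whose median was -0.03.

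Tubb3, class III beta-tubulin, went the other way. It was at 0.0801 to 14.7 CPM (median 6.36 CPM) in transgenic nerves, against 1.02 to 4.26 CPM (median 2.06 CPM) in non-transgenic nerves, a log2 fold change of 1.59 ± 0.29 (edgeR adjusted p = 0.00101). Tuba1a, the alpha-tubulin of neurons, was lower at -0.49 ± 0.10 (edgeR adjusted p = 0.00259), and these were the calls among 13 tubulins. Of 23 presynaptic genes 4 were lower, Erc2, Snap25, Rims2 at -1.35 ± 0.35 and Ppfia3 at -0.71 ± 0.17, and 1 higher, Ppfia2 at 0.58 ± 0.16 (edgeR adjusted p = 0.0238, 0.0154 and 0.0405), all of them active zone or vesicle proteins, with a list median of -0.22. The Ppfia2 call was lost without any 1 of 15 libraries and that of Rims2 without WT sample 2. Of 20 genes of the node and its flanks Cntn1, the adhesion protein contactin 1, was lower at -0.96 ± 0.17 and Cadm1, a cell adhesion molecule, higher at 0.83 ± 0.16 (edgeR adjusted p = 6.51e-04 and 0.00144). Of 14 glial potassium channels Kcnj10 was higher and Kcnk2, a background channel, lower at -0.37 ± 0.10 (edgeR adjusted p = 0.0445), lost without any 1 of 21 libraries.

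Macrophage genes were raised in part. Of 29 macrophage and myeloid genes 5 were higher and none lower, with a median of 0.22, and leaving out 1 library at a time gave 4 to 6. Cx3cr1 (ENSMUSG00000052336, chromosome 9, 119901616 to 120069879), the fractalkine receptor, was at 10.3 to 42.0 CPM (median 25.1 CPM) in transgenic nerves, against 3.68 to 17.4 CPM (median 9.44 CPM) in non-transgenic nerves. With 15 transgenic nerves above all others its log2 fold change was 1.53 ± 0.17 (edgeR adjusted p = 5.13e-07), though its annotated span overlaps other genes, Wdr48 among them. Trem2, a lipid-sensing receptor of macrophages, was at 7.68 to 20.6 CPM (median 13.1 CPM) in transgenic nerves, against 3.95 to 9.86 CPM (median 5.97 CPM) in non-transgenic nerves, a log2 fold change of 1.05 ± 0.14 (edgeR adjusted p = 8.41e-06). Lgals3 (galectin 3) had 0.53 ± 0.09 and P2ry12, a purinergic receptor, 0.37 ± 0.09 (edgeR adjusted p = 7.71e-04 and 0.0226). The defining markers Adgre1, Cd68 and Csf1r had 0.24 ± 0.25, 0.16 ± 0.16 and 0.03 ± 0.15 and did not pass (edgeR adjusted p = 0.655, 0.638 and 0.938). The summed macrophage and myeloid list was at 1049 to 3476 CPM (median 1959 CPM) in transgenic and 1425 to 2746 CPM (median 1970.2 CPM) in non-transgenic nerves, and within the G series the list's median was -0.07.

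Other immune lists had few calls or none. Of 22 chemokines and cytokines 2 were higher, Cxcl10, an interferon-induced chemokine, at 1.08 ± 0.23, and Cxcl14 at 0.75 ± 0.18 (edgeR adjusted p = 0.00538 and 0.0128). By edgeR no gene was called among 23 interferon-stimulated genes, 21 complement genes, 16 antigen presentation genes, 9 mast cell genes, 7 lymphocyte genes and 5 neutrophil genes tested, where 10 of 17 lymphocyte genes were too low to test, and DESeq2 called none of them. At an unadjusted p under 0.05 stood 1 interferon-stimulated, 4 complement, 2 mast cell and 1 lymphocyte gene, and 0 of the antigen presentation and neutrophil genes. Their smallest p-values belonged to Gbp2 at -0.26 ± 0.11, C1qa at 0.34 ± 0.14, B2m at -0.28 ± 0.14, Tpsab1 at 0.69 ± 0.24, Cd4 at 0.56 ± 0.21 and S100a9 at 0.61 ± 0.76 on the log2 scale.

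Matrix genes moved singly. Of 40 collagens 4 were higher and 2 lower, with a median of -0.10. Col7a1, the collagen of anchoring fibrils, had 1.29 ± 0.30 and Col11a2, of fibrillar collagen XI, 0.74 ± 0.17, against Col8a2 at -0.89 ± 0.15 and Col15a1, of basement membranes, at -0.66 ± 0.14 (edgeR adjusted p = 0.0127, 0.011, 2.66e-04 and 0.00527). The other higher ones were Col22a1 and Col27a1 at 0.65 ± 0.19 (edgeR adjusted p = 0.048), and the Col27a1 call was lost without any 1 of 23 libraries. Lox, which cross-links collagen and elastin, had -0.73 ± 0.12 and Fbln5, of elastic fibres, -0.42 ± 0.10 (edgeR adjusted p = 3.18e-04 and 0.014), the calls among 18 such genes. Of 25 basal lamina genes 1 was higher and 2 lower, the sarcoglycans Sgcd at -0.29 ± 0.08 and Sgce at -0.23 ± 0.06 (edgeR adjusted p = 0.0274 and 0.0171), the Sgcd call lost without WT sample 4 or C3-PMP22 Sipa1l2-/- sample 8. Epyc alone was called among 10 small leucine-rich proteoglycans, and no gene among 19 fibroblast genes by edgeR, with 4 at an unadjusted p under 0.05 and 3 called by DESeq2.

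Of 25 TGF-beta genes 3 were higher, at a median of -0.03: Ltbp2, a latent TGF-beta binding protein, at 1.45 ± 0.17, Tgfbr1, a receptor, at 0.31 ± 0.07, and Tgfbi, an induced matrix protein, at 0.32 ± 0.09 (edgeR adjusted p = 1.28e-06, 0.0159 and 0.045). The Tgfbi call was lost without any 1 of 23 libraries. Of 9 perineurial genes Lypd2 was lower at -0.57 ± 0.15 (edgeR adjusted p = 0.0325), lost without any 1 of 8 libraries.

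Vascular lists leaned lower. Of 19 endothelial genes 3 were lower, with a median of -0.28: Robo4, an endothelial guidance receptor, at -0.47 ± 0.11, Esam, an adhesion molecule, at -0.36 ± 0.10, and Flt1, a VEGF receptor, at -0.35 ± 0.09 (edgeR adjusted p = 0.0132, 0.0301 and 0.0289). The endothelial count was 1 without WT sample 2 or WT sample 4 and 8 without C3-PMP22 sample 5, and the markers Pecam1 and Cdh5 had -0.28 ± 0.10 and -0.22 ± 0.07 and did not pass (edgeR adjusted p = 0.127 and 0.0789). Of 14 pericyte and smooth muscle genes 3 were lower, with a median of -0.41: Acta2, smooth muscle actin, at -0.76 ± 0.22, Tagln, transgelin, at -0.54 ± 0.13, and Notch3 at -0.51 ± 0.14 (edgeR adjusted p = 0.0432, 0.0183 and 0.032). The Acta2 call was lost without any 1 of 18 libraries and the Notch3 call without any 1 of 9. Notch4 at -0.49 ± 0.13, Heyl, a Notch target, at -0.41 ± 0.12, and Dlk1 made up the rest of the 4 lower of 19 Notch pathway genes (edgeR adjusted p = 0.027 and 0.0433), with the Heyl call lost without any 1 of 17 libraries and that of Notch4 without any 1 of 3.

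Imprinted growth genes were lower in 4 of 19 cases, none higher, with a median of -0.30: Dlk1, Igf2, Sgce and Meg3, a noncoding RNA of the Dlk1 locus, at -0.51 ± 0.09 (edgeR adjusted p = 7.83e-04). Igf2 alone was called among 15 IGF genes, and Rspo1 alone among 35 Wnt pathway genes. Of 31 semaphorin, plexin and neuropilin genes Sema4f was higher, and the axon guidance ligands Sema5a at -1.06 ± 0.17 and Sema5b at -0.54 ± 0.13 lower (edgeR adjusted p = 1.46e-04 and 0.0151). Of 34 cell cycle genes 2 were higher, Ccnd1, cyclin D1, at 0.56 ± 0.10 and Cdkn2a, which encodes cell cycle inhibitors, at 0.84 ± 0.13 (edgeR adjusted p = 0.00101 and 1.07e-04). Of 11 S100 genes S100a4 at 1.10 ± 0.13 and S100a3 at 1.39 ± 0.37 were higher (edgeR adjusted p = 7.51e-07 and 0.0301), the S100a3 call lost without any 1 of 4 libraries.

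Tex15, a germ cell protein of piRNA-directed silencing, joined Piwil4 as the other call among 13 Argonaute and piRNA pathway genes, at 1.34 ± 0.19 (edgeR adjusted p = 4.37e-05). Of 17 SIPA1 family and Rap genes Rap1gap, a Rap GTPase-activating protein, was higher at 0.90 ± 0.23, and Rapgef4, a Rap exchange factor, lower at -1.01 ± 0.19 (edgeR adjusted p = 0.0248 and 0.00103), the Rap1gap call lost without C3-PMP22 Sipa1l2-/- sample 6. Sipa1l2 itself had 0.03 ± 0.16 (edgeR adjusted p = 0.95). Of 29 Hox genes Hoxc5 was lower at -0.35 ± 0.10 (edgeR adjusted p = 0.0481), lost without any 1 of 23 libraries. Among 3 melanocyte genes tested Tyrp1 was higher at 4.49 ± 0.49 (edgeR adjusted p = 4.12e-07), at 0.146 to 3.62 CPM (median 1.25 CPM) in transgenic nerves and 0 to 0.277 CPM (median 0.0638 CPM) in non-transgenic nerves, while the marker Dct had 0.31 ± 0.42 and did not pass (edgeR adjusted p = 0.737).

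Stress and proteostasis lists held few calls. By edgeR no gene was called among 26 unfolded protein response genes (median -0.01), 34 proteasome subunits (median 0.07), 22 immediate early genes (median 0.02), 13 hedgehog genes (median -0.10) or 7 erythrocyte genes (median -0.37), and DESeq2 called none of them. At an unadjusted p under 0.05 stood 3 unfolded protein response, 3 immediate early and 1 hedgehog gene, and 0 of the others. Those with the smallest p-values were Sel1l, of ER-associated degradation, at -0.12 ± 0.04, Psmc6 at 0.21 ± 0.11, Jun, Ptch1 at 0.36 ± 0.14 and Bpgm at 0.28 ± 0.20. Hspa4l, an HSP110 family chaperone, was lower at -0.44 ± 0.08 and alone among 16 heat shock genes (edgeR adjusted p = 0.00179), and 1 of 32 autophagy and lysosome genes was higher. Of 13 mitochondrially encoded genes all were above 0, with a median of 0.51, and 12 stood at an unadjusted p under 0.05. Their median was 0.86 in C3-PMP22 against WT and 0.24 in C3-PMP22 Sipa1l2-/- against Sipa1l2-/-. Only mt-Nd3 was called, at 0.78 ± 0.20 (edgeR adjusted p = 0.0274). That call was lost without any 1 of WT sample 4, WT sample 6 and C3-PMP22 Sipa1l2-/- sample 8, and the mitochondrially encoded count ran from 0 to 5 over libraries left out. The 44 nuclear oxidative phosphorylation genes had no call by edgeR or DESeq2, 1 gene at an unadjusted p under 0.05 and a median of 0.20, beside the summed skeletal muscle list given above, whose part in these values was not tested.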

How the data were processed

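RNA of 32 sciatic nerves was sequenced; per the labels' protocols, TRIzol and a miRNeasy column with DNase gave the RNA, and polyA selection with the KAPA mRNA HyperPrep kit the libraries. Trim Galore, FastQC and RSEM were used on GRCm38 (mm10), per the submitters' processing notes; for versions, aligner, annotation and use of strand the sources used here give nothing. Deposited by the authors were expected counts per gene and library, already whole numbers and not scaled. The file held 45706 genes, of which 45143 had a symbol and 19082 were never counted.

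Genes were kept by filterByExpr by genotype (minimum count 10, minimum total 15), TMM scaling was applied, and the quasi-likelihood model of edgeR was fitted in R 4.3.3 (edgeR 4.0.16, limma 3.58.1, data.table (1.17.8)) with terms for transgene, Sipa1l2 genotype and labelled sex; interaction terms and a model of 4 genotypes gave the other tests. The scripts were tested on simulated data. Adjusted p-values are Benjamini-Hochberg over all 15403 genes tested, and SE is from the F statistic. DESeq2 1.42.0, other scalings and filters, added terms, parts of the libraries and each library left out were alternatives. Summed list levels are scaled to total counts. Gene positions are from GENCODE M21.

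The comparison, lists and genes were chosen with earlier results of these data known. Named were a panel of 9 genes, the 10 called genes per direction with the largest change and the 6 with the smallest p at a mean of at least 1 CPM (clone and model symbols left out), up to 4 called members per list and direction, up to 2 members of lists without a call, 3 genes per interaction test and cell type markers. Values of a few genes under this rule are left out of the text and figures, while the counts of genes hold them.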

Additional observations from a re-analysis of the deposited data

Results flagged for a closer look

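In 34 leading and panel genes, each genotype of 7 to 9 nerves was searched for a nerve far from the others of its genotype (Dixon's test at the 95% level). Such a nerve was found in 6 of 136 gene and genotype pairs, where chance gives about 1 in 20. Emid1 was 84.3 CPM in C3-PMP22 sample 6, against 29.7 to 39.3 CPM in the other C3-PMP22 nerves, and Ppp2r2c was 37.2 CPM in the same nerve, against 11.9 to 20.2 CPM. Epyc was 8.03 CPM in C3-PMP22 Sipa1l2-/- sample 3, against 17.2 to 30.6 CPM in the others of that genotype. Prkch was 14.4 CPM in C3-PMP22 Sipa1l2-/- sample 2, against 7.33 to 9.997 CPM. Rab15 was 1.28 CPM in Sipa1l2-/- sample 3, against 2.56 to 4.64 CPM, and Sema4f was 2.83 CPM in WT sample 2, against 0.651 to 1.19 CPM. All 6 genes were called with each of the 32 libraries left out in turn, these nerves included.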

How the results depend on the processing

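In the transgenic against non-transgenic nerves fit, genes called numbered 507, and 799 by DESeq2, 991 with an adipocyte score as a term, 860 with muscle and adipocyte scores (chosen after seeing the data), 127 in labelled females, 101 in labelled males, 182 in the G series, 83 with Sipa1l2 intact and 68 with Sipa1l2-/-. Left-out libraries gave 397 to 627, and the other alternatives 377 to 572. C3-PMP22 against WT gave 106 genes called, 375 by DESeq2, 169 with the adipocyte score, 186 with both scores and 59 without the libraries that went against labelled sex, with 71 to 409 over left-out libraries. C3-PMP22 Sipa1l2-/- against Sipa1l2-/- gave 111, 219 by DESeq2, 223 with the adipocyte score and 244 with both, with 81 to 142 over left-out libraries. The interactions with Sipa1l2 genotype and with sex gave 0, and 3 and 4 by DESeq2; without a sex term the interaction with sex has no value. The cause of these differences was not tested, save that parts of the libraries hold fewer samples. The medians of the macrophage, adipocyte and skeletal muscle lists changed sign in 1 of the identifier series, as given above. Of 108 named genes called, none changed sign with a library left out, under 14 other settings of the whole set or in 6 parts of the libraries. Of these genes 81 were called with each library left out in turn, 75 under all 14 settings and 22 in all 6 parts. They were called in the fit on all 32 libraries to begin with, so their kept sign is no separate support. With the sample number as a replicate block 444 genes were called. Same-numbered nerves of different groups had a median correlation of deviations of 0.09 over 45 pairs (-0.557 to 0.744). Of 32 nerves 7 correlated best with their own number, so the numbers were not taken as pairs. Sample numbers run within each genotype. The sample identifiers also share leading numbers between nerves, within and across genotypes, and that grouping was not tested. At this depth and spread the median interval was 0.21 on the log2 scale to either side, and genes under 1 CPM rest on few counts.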
